A study of Capra hircus with 4 samples.

Results

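The genes described here are the FOXO transcription factors of goat muscle and the genes of protein breakdown and autophagy that stand under them. The 10 listed genes were FOXO1, FOXO3, FOXO4, TRIM63, FBXO32, BNIP3, GABARAPL1, MAP1LC3B, CTSL and SQSTM1. A gene was taken where the authors' table of goat gene names holds it, and this was so for 8 of the 10. BNIP3 and CTSL are not in that table. The 8 genes were represented by 11 unigenes, which are sequences assembled from the reads without a genome, of 21220 unigenes paired with a goat protein and 59774 unigenes in all. All 8 passed the minimum of a mean of 10 expected counts over the libraries, as did 7544 of 11208 goat genes with a name.

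The RNA-seq data come from the longissimus dorsi, the long back muscle, of Cashmere goats with a labelled age of 2 months. There was 1 control library (called the control), and 3 treated libraries came from goats that received ractopamine, a β-adrenergic agonist that makes muscle grow, by mouth at 1 mg per kg body weight. The study dosed for 28 days and then withheld the drug for 21 days, and the labels do not say on which day a library was taken, nor what the control goats were given. Per its methods, the study sequenced treated goats on different days of dosing and withdrawal, each day with a control of its own, while the labels call the libraries replicates. They are therefore called treatments 1, 2 and 3 as in their labels, with the same drug and dose, no library is assigned to a day, and a difference between treatments cannot be told apart from a difference in day. Nothing in the labels says that they came from separate animals.

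FOXO proteins are forkhead transcription factors that enter the nucleus when insulin and growth factor signalling is low. In skeletal muscle they switch on TRIM63 (MuRF1) and FBXO32 (atrogin-1), a pair of ubiquitin ligases that mark muscle proteins for the proteasome, and many genes of autophagy, in which a membrane closes around cell contents and carries them to the lysosome. Such genes are known as atrogenes because they are induced when muscle wastes after fasting, disuse or denervation.

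The sequences that identify the FOXO transcripts are shown first, as the factors share one DNA-binding domain and reads could be mixed up between them. In the forkhead domain, 90 bases of each unigene encode the same 30 residues with at most 1 difference, and capitals mark the 18 bases at which the 3 sequences are not all the same.
FOXO1: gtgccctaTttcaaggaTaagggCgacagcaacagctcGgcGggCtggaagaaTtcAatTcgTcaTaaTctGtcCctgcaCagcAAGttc
FOXO3: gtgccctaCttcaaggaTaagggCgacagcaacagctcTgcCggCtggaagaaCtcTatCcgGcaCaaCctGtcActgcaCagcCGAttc
FOXO4: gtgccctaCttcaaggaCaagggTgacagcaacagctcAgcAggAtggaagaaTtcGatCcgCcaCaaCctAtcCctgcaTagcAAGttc
These stretches lie at bases 325 to 414 of c13476_g2 (FOXO1), 977 to 1066 of c13476_g1 (FOXO3) and 823 to 912 of c50229_g1 (FOXO4), counted from the first base of the assembled sequence. FOXO1 and FOXO3 differed at 13 of the 90 bases, as did FOXO1 and FOXO4, and FOXO3 and FOXO4 differed at 14. The longest run of bases that the whole FOXO1 and FOXO3 unigenes have in common was 29 bases.

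The ubiquitin ligases were each represented by 1 unigene with a protein match of 100% identity. The TRIM63 unigene c10636_g1 is 2131 bases long and carries the RING finger, which holds zinc and binds the ubiquitin-loaded enzyme. Capitals mark the codons of the cysteines and the histidine that hold the zinc in this part of the finger, read on the reverse strand of the assembled sequence at bases 1866 to 1940.
TRIM63: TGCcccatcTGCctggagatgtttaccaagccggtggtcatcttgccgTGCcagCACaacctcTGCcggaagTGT
The FBXO32 unigene c13298_g2 is 2721 bases long, and its coding sequence opens on the reverse strand at bases 2354 to 2413, with the start codon in capitals.
FBXO32: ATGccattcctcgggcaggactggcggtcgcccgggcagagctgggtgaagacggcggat

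A pair of unigenes carries the name MAP1LC3B in the authors' table, and their sequences show that they are different genes. MAP1LC3B and its paralogue MAP1LC3A are light chains that are cut at a glycine near their end and joined there to a lipid of the autophagosome membrane. The last 75 bases up to that glycine differ at 22 positions, marked by capitals, and at 4 of the 25 residues.
MAP1LC3B: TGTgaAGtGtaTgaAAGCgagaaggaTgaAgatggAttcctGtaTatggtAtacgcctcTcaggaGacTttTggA
MAP1LC3A: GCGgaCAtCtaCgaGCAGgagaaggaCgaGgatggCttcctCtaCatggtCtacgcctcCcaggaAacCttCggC
The first is in c9979_g1, on the reverse strand at bases 1638 to 1712, with a protein match of 100% identity to MAP1LC3B. The second is in c4124_g1, on the forward strand at bases 568 to 642, which matched MAP1LC3B with 85% identity and is named MAP1LC3A in the authors' annotation. SQSTM1 (p62), which binds ubiquitin-marked cargo and ties it to the light chains, was found as c9115_g1. The codons of the 4 core residues of its LC3-interacting region are in capitals, read on the reverse strand at bases 978 to 1031.
SQSTM1: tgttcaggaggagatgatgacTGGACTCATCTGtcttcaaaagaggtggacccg

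The libraries held 8533046 expected counts (control) and 7962590, 7339521 and 6675218 expected counts (treatments 1, 2 and 3), where an expected count is the authors' estimate of the fragments from a unigene. Counts of the mitochondrial genome made up 22.2% in the control and 37.5%, 84.3% and 49.7% in treatments 1, 2 and 3. Treatment 2 therefore had 133802 counts from goat genes outside the mitochondrial genome, compared with 6086312 in the control, and 60.7% of the 7544 genes had 3 counts or fewer in it. In the first place, ratios are given on all counts. As the mitochondrial share pulls down the share of every other gene, each ratio was also calculated on the counts of goat-paired unigenes, on these without the mitochondrial genome, and with the median goat gene set to 1. On all counts the median goat gene had a ratio to the control of 0.536, 0.0371 and 0.410 in treatments 1, 2 and 3, and without the mitochondrial genome 0.762, 1.45 and 0.724. The treated libraries were not tested against the control, as an exact permutation test of 1 against 3 libraries cannot give a two-sided p below 0.5. The intervals are 95% exact Clopper-Pearson intervals and cover counting error only. A gene with 3 counts or fewer was set to 3, and its fold is given as at least that value. Such a fold is not the limit of the interval, which uses the count itself. In such bulk RNA, fewer cells of a type and less RNA per cell cannot be told apart.

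TRIM63 was the only one of the 8 genes with a ratio above 3 in any treated library, and FOXO1, FOXO3, FOXO4, FBXO32, MAP1LC3B and SQSTM1 were below 0.6 in all 3. The limits 3 and 0.6 are those used by the study. Ratios below 0.6 were found for 6 of 8 genes in treatment 1, and 8 of 8 genes in treatments 2 and 3, on all counts and on goat-paired counts alike. Of all 7544 genes, 56.0%, 99.2% and 73.8% were below 0.6 on all counts, and 52.7%, 99.2% and 71.9% on goat-paired counts. The lower ratios in treatments 2 and 3 were thus shared by most genes. Below 0.6 in all 3 treated libraries were 6 of 8 genes, set against 51.3% (all counts) and 48.1% (goat-paired counts) of all genes, and without treatment 2 the number was also 6. TRIM63 was above 3 in treatment 1, where 2.28% of all genes were on all counts and 2.62% on goat-paired counts. None of the 8 was above 3 in treatment 2 (0.0663% of all genes on both scalings) or in treatment 3 (0.583% and 0.623%), and 2.53% and 2.88% of all genes were above 3 in at least 1 library. With the median goat gene set to 1, a ratio below 0.6 was left for 4, 7 and 6 of 8 genes in treatments 1, 2 and 3, against 24.1%, 31.2% and 20.3% of all genes. The number below 0.6 in all 3 libraries was then 3 of 8, against 5.38% of all genes. In treatment 2 a gene set to 3 counts can be below 0.6 on this scaling only if its control count is high enough. The 8 genes had at least 251 counts in the control. The 31.2% and 5.38% include genes with too few control counts for this. They are therefore not a like-for-like comparison for the 8 genes. TRIM63 alone was above 3, in treatment 1, where 7.78% of all genes were, with 5.36% in treatment 2, 4.92% in treatment 3 and 12.4% in at least 1 library.

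**Figure D1:**
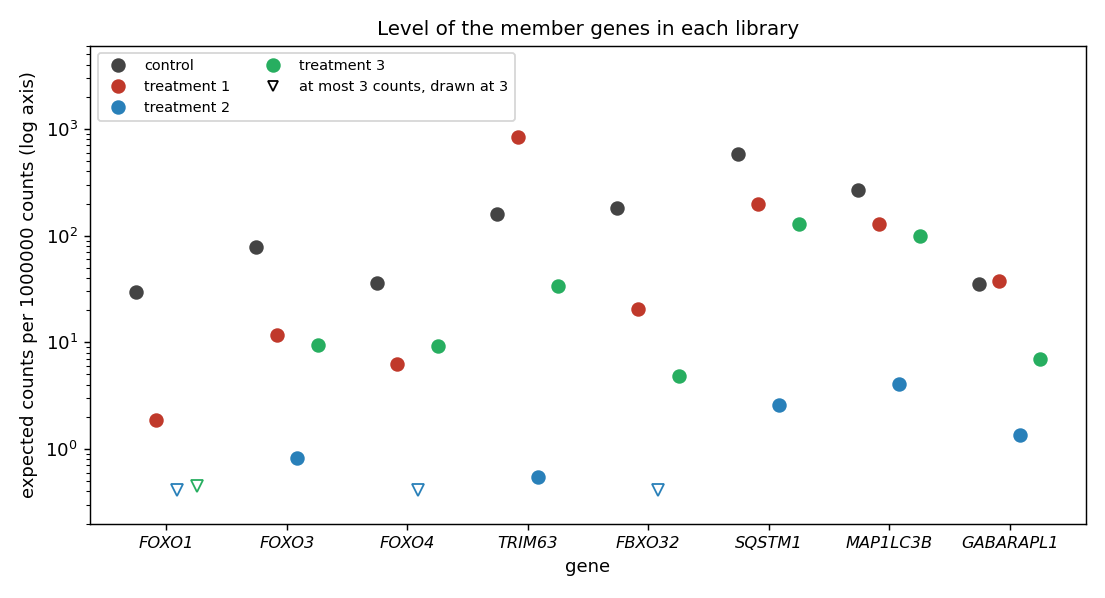
Expected counts per 1000000 counts of the library on a log axis for the 8 genes, with 1 point per library and open triangles for values of at most 3 counts, drawn at 3 counts. TRIM63 in treatment 1 (833 per 1000000) lies above every other point, on a scale that is not corrected for length, and the other genes have their highest point in the control, except GABARAPL1, at 35.0 in the control and 37.3 in treatment 1.

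Among the FOXO factors, FOXO1 was the furthest below the control in treatments 1 and 3. It had 251 expected counts in the control, 15 in treatment 1, 0 in treatment 2 and 1 in treatment 3. The control value stood above each treated value, and treatments 2 and 3 were both within 3 counts. On all counts, FOXO1 was 15.6-fold lower in treatment 1 (95% interval 9.29 to 28.3) and at least 65.5-fold lower in treatment 3 (interval from 34.9). Of the 7544 genes, 113 had a lower ratio than FOXO1 in treatment 1 and 1 had a lower bound or ratio in treatment 3. Under the 4 scalings the ratio of FOXO1 ranged from 0.0640 to 0.120 in treatment 1. In treatment 3 it was at most 0.0373 with its count set to 3, and the exact interval reached up to 0.0698. In treatment 2 the count of 0, set to 3, gave a ratio of 0.544 on the counts outside the mitochondrial genome. The exact interval reached up to 0.673 of the control, so that a smaller difference was not detectable at this depth.

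FOXO3, the factor most studied as a driver of atrogenes, had 663 expected counts in the control and 93, 6 and 63 in treatments 1, 2 and 3. It was lower in each treated library, and treatments 1 and 3 were alike. The difference on all counts was 6.65-fold in treatment 1 (5.35 to 8.36) and 8.23-fold in treatment 3 (6.35 to 10.8), with intervals that overlap. The ratio stayed below 0.3 in both libraries under all 4 scalings, at most 0.281 and 0.296.

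FOXO4 was summed over 3 unigenes with 304, 50, 2 and 62 expected counts in the control and treatments 1, 2 and 3. Most came from c50229_g1, which matched FOXO4 with 100% identity and had 263, 50, 2 and 60 counts. The others were c6864_g1, with 38 counts in the control and 0 in each treated library, and c1054_g2, with 3, 0, 0 and 2 counts. Their protein matches were weak, at 71% and 42% identity, and their best nucleotide matches were bovine FOXO1 and FOXO6. FOXO4 was 5.67-fold lower in treatment 1 (4.20 to 7.81) and 3.84-fold lower in treatment 3 (2.91 to 5.13) on all counts, and c50229_g1 alone had ratios of 0.204 and 0.292. With the median goat gene set to 1, FOXO4 in treatment 3 was at 0.636, which is no longer below 0.6. When c6864_g1 was counted as FOXO1, as the annotation names it, FOXO1 had 289, 15, 0 and 1 counts, and was 18.0-fold lower in treatment 1.

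The 3 factors did not keep their proportions. FOXO1 had 0.379 counts per count of FOXO3 in the control (0.326 to 0.438), 0.161 in treatment 1 (0.0868 to 0.280) and 0.0159 in treatment 3 (0.000396 to 0.0917). This ratio needs no scaling, and the intervals of the treatments 1 and 3 lie below that of the control. FOXO3 and FOXO4 stood at 2.18 to 1 in the control (1.90 to 2.51), 1.86 to 1 in treatment 1 (1.31 to 2.68) and 1.02 to 1 in treatment 3 (0.704 to 1.47), where only the last interval is apart from the control. Treatment 2 held 0, 6 and 2 counts of FOXO1, FOXO3 and FOXO4, too few to order them. By transcripts per 1000000 (TPM), which corrects for length, FOXO1 was at 21.8, FOXO3 at 14.4 and c50229_g1, the unigene that matched FOXO4 at 100%, at 19.4 in the control. The sum of the 3 unigenes paired with FOXO4 was 30.9, so that the order of FOXO1 and FOXO4 depended on the weakly matched unigenes. FOXO1 was the lowest of the 3 in treatments 1 and 3, at 1.35 and 0.12.

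The ubiquitin ligases TRIM63 and FBXO32 went apart in treatment 1. TRIM63 had 1357 expected counts in the control, 6629 in treatment 1, 4 in treatment 2 and 227 in treatment 3. FBXO32 had 1537 expected counts in the control, and 163, 1 and 32 in treatments 1, 2 and 3. Treatment 1 thus held the highest value of TRIM63 and the second highest of FBXO32, and in treatments 2 and 3 both genes were below the control.

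On all counts, TRIM63 was 5.24-fold higher in treatment 1 than in the control (95% interval 4.94 to 5.55), and 74 of the 7544 genes (0.981%) had a higher ratio. The ratio lay between 5.24 and 9.77 over the 4 scalings. In treatment 3 it was 4.68-fold lower on all counts (4.06 to 5.41), with a ratio of 0.214 to 0.522 over the scalings. In treatment 2, the ratio on all counts was 0.00343, from 4 counts, and it reached at most 0.134. By TPM, TRIM63 was the highest of the 8 genes in treatment 1, at 505, whereas it was the third highest in the control at 99.1 and in treatment 3 at 22.4.

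FBXO32 was 8.80-fold lower in treatment 1 (7.48 to 10.4) and 37.6-fold lower in treatment 3 (26.5 to 55.1). In treatment 3, 4 of the 7544 genes had a lower ratio. In treatment 2, with its 1 count set to 3, it was at least 441-fold lower on all counts (interval from 237). Without the mitochondrial genome it was at least 11.3-fold lower there (interval from 6.06). The ratio was below 0.22 in each treated library under all 4 scalings, and at most 0.212, 0.0888 and 0.0649 in treatments 1, 2 and 3.

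Within a library, TRIM63 had 0.883 counts per count of FBXO32 in the control (0.820 to 0.950), 40.7 in treatment 1 (34.8 to 47.8) and 7.09 in treatment 3 (4.89 to 10.6). Compared with the control, the balance of the 2 ligases was 46.1-fold higher in treatment 1 and 8.03-fold higher in treatment 3. Both intervals lie above that of the control, and also apart from each other. Treatment 2 gave 4 counts of TRIM63 and 1 of FBXO32, with an interval of 0.396 to 197 that includes the control value. Thus FBXO32 was lower relative to TRIM63 also in treatment 3, in which both were below the control.

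**Figure D2:**
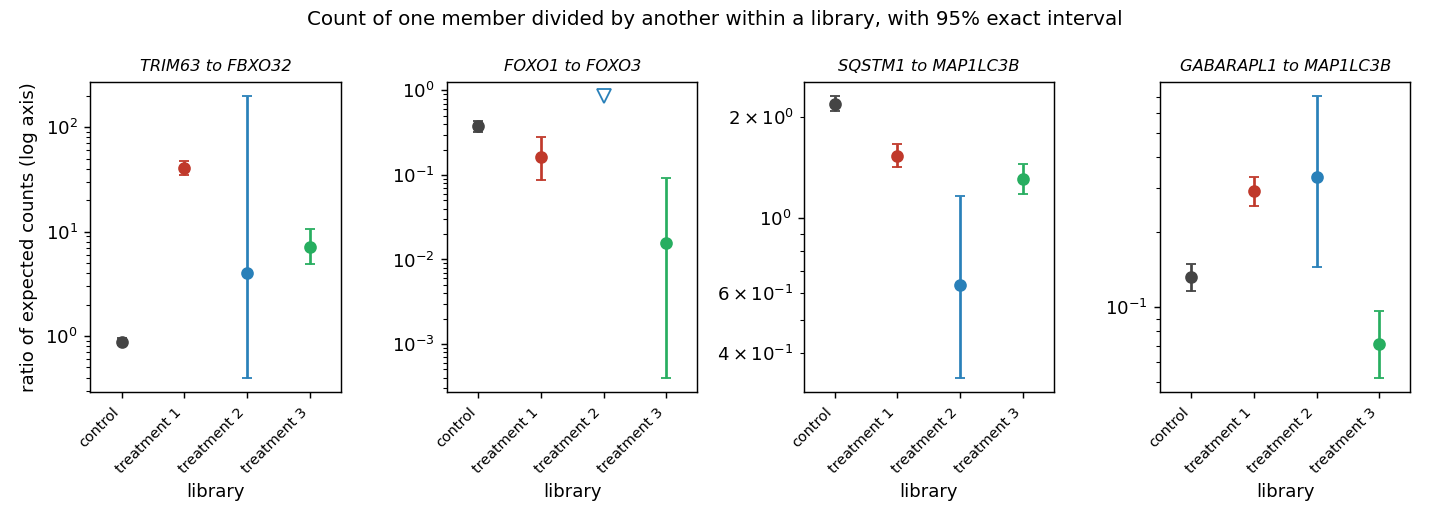
Count of one gene divided by that of another within each library on log axes, with 95% exact intervals and an open triangle for the upper limit where the first gene had no count. TRIM63 to FBXO32 was 0.883 in the control and 40.7, 4 and 7.09 in treatments 1, 2 and 3, and FOXO1 to FOXO3 was below the control in treatments 1 and 3.

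SQSTM1, the cargo receptor, had 4956 expected counts in the control, 1561 in treatment 1, 19 in treatment 2 and 858 in treatment 3. All treated values were below the control. By TPM it was at 373 in the control and 122 in treatment 1, above the unigene with the MAP1LC3B sequence, c9979_g1, at 114 and 45.1. The unigene of MAP1LC3A, c4124_g1, was at 220 and 159 TPM. On all counts the difference was 2.96-fold in treatment 1 (2.80 to 3.14) and 4.52-fold in treatment 3 (4.20 to 4.86). With the median goat gene set to 1, the ratio was 0.630 in treatment 1, above the limit of 0.6, and 0.540 in treatment 3.

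MAP1LC3B, with both unigenes, had 2272, 1019, 30 and 658 expected counts in the control and treatments 1, 2 and 3. It was 2.08-fold lower in treatment 1 (1.93 to 2.24) and 2.70-fold lower in treatment 3 (2.48 to 2.95) on all counts. Its ratios were near those of the median goat gene in treatments 1 and 3, as 0.897 and 0.903 were left when that gene was set to 1. In treatment 2 the value was 0.414. For c9979_g1 alone it was 0.760, 0.184 and 0.798 in treatments 1, 2 and 3. The unigenes differed among themselves. The unigene with the MAP1LC3B sequence, c9979_g1, had 1535, 583, 9 and 393 counts, and c4124_g1, named MAP1LC3A by the annotation, had 737, 436, 21 and 265. There were 0.480 counts of the second per count of the first in the control (0.439 to 0.525), 0.748 in treatment 1 (0.659 to 0.848), 2.33 in treatment 2 (1.02 to 5.79) and 0.674 in treatment 3 (0.575 to 0.790). The 3 treated intervals lie above that of the control.

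GABARAPL1, a light chain relative that acts late in the closing of the autophagosome, was the only gene beside TRIM63 that was not lower in treatment 1. It had 299 expected counts in the control, 297 in treatment 1, 10 in treatment 2 and 47 in treatment 3. The ratio in treatment 1 was 1.06 on all counts (0.904 to 1.25), an interval that includes 1, and 1.14 on goat-paired counts. It was 1.51 without the mitochondrial genome (1.29 to 1.78) and 1.99 with the median goat gene set to 1 (1.69 to 2.34), where the intervals lie above 1. In treatment 3 it was 4.98-fold lower on all counts (3.65 to 6.92) and had a ratio of at most 0.490. In treatment 2 the direction depended on the scaling, with 0.0389 on all counts and 1.52 without the mitochondrial genome, from 10 counts. Its unigene, c13374_g1, matched GABARAPL1 with 71% protein identity, while its best nucleotide match was sheep GABARAPL1. Of its 6 transcripts the longest, of 2249 bases, held 48.8% of the counts in the control (43.0 to 54.6%), 73.7% in treatment 1 (68.3 to 78.7%) and 70.2% in treatment 3 (55.1 to 82.7%).

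The balance of the autophagy genes also moved between libraries. SQSTM1 had 2.18 counts per count of MAP1LC3B in the control (2.08 to 2.29), 1.53 in treatment 1 (1.41 to 1.66), 0.633 in treatment 2 (0.337 to 1.16) and 1.30 in treatment 3 (1.18 to 1.45). Here and for GABARAPL1 below, MAP1LC3B is the sum of both unigenes. On this sum, the intervals of the treated libraries lie below that of the control. Of the 30 MAP1LC3B counts in treatment 2, 21 came from c4124_g1, named MAP1LC3A, and 9 from c9979_g1. The ratio of SQSTM1 to c9979_g1 alone was not calculated. GABARAPL1 had 0.132 counts per count of MAP1LC3B in the control (0.116 to 0.149), 0.291 in treatment 1 (0.255 to 0.332), 0.333 in treatment 2 (0.145 to 0.701) and 0.0714 in treatment 3 (0.0520 to 0.0961). For this pair treatment 1 was above the control and treatment 3 below it.

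**Figure D3:**
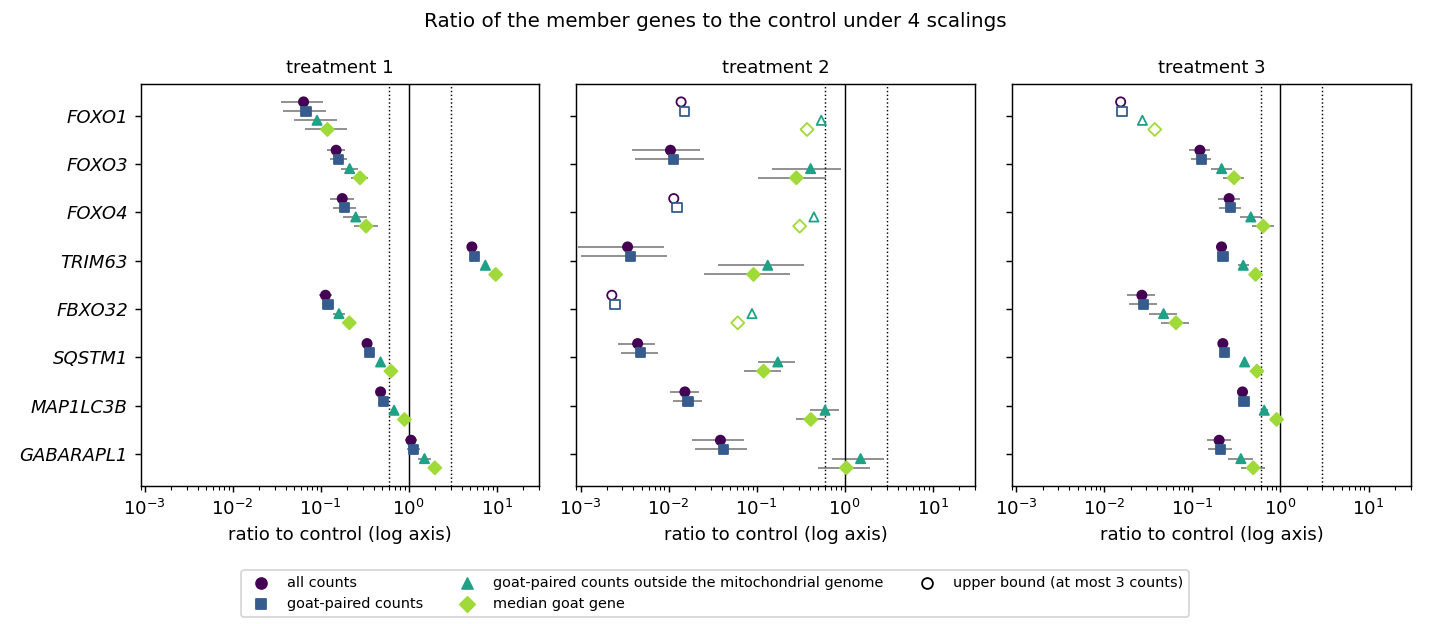
Ratio of each gene to the control on a log axis, in 1 panel per treated library, with a symbol for each of 4 scalings, 95% exact counting intervals and dotted lines at 0.6 and 3. Open symbols, drawn without an interval, stand for genes set to 3 counts. TRIM63 in treatment 1 lies at 5.24 to 9.77, and FBXO32 lies below 0.22 in each panel, while GABARAPL1 in treatment 2 lies on either side of 1.

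GAPDH, the reference gene of the study's qRT-PCR, had 111313 expected counts in the control and 66565, 4205 and 84905 in treatments 1, 2 and 3. Its ratio on all counts was 0.641, 0.0439 and 0.975, so that FOXO1, FOXO3, FOXO4, FBXO32, MAP1LC3B and SQSTM1 were lower relative to GAPDH in each treated library, whatever the scaling. TRIM63 was higher relative to GAPDH in treatment 1 and lower in treatments 2 and 3. GAPDH itself was above 1 without the mitochondrial genome in treatments 2 and 3, at 1.72 in both. With the median goat gene set to 1, GAPDH was at 1.20, 1.18 and 2.38 in treatments 1, 2 and 3. The median goat gene was thus also lower relative to GAPDH in each treated library. MAP1LC3B, at 0.897 and 0.903 in treatments 1 and 3 on this scaling, was near that median.

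BNIP3 and CTSL, which are outside the goat gene table, were looked up by the authors' annotation after the files had been seen. The unigene c783_g1, annotated as BNIP3, which marks mitochondria for autophagy, had 1717, 939, 8 and 406 expected counts in the control and treatments 1, 2 and 3. On all counts its ratio was 0.586 (0.541 to 0.635) in treatment 1 and 0.302 (0.271 to 0.337) in treatment 3. The unigene c11727_g1, annotated as CTSL, a lysosomal protease that is known as an atrogene, had 215, 98, 7 and 57 counts and ratios of 0.488 (0.381 to 0.623) and 0.339 (0.248 to 0.456). Both were below the control on all counts. With the median goat gene set to 1, BNIP3 was at 1.09 in treatment 1 and CTSL at 1.02 in treatment 2, where it was at 1.48 without the mitochondrial genome, from 7 counts.

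Lists of related genes, 6 in all, were set beside the 8 genes, on goat-paired counts. On this scaling 52.7%, 99.2% and 71.9% of all genes were below 0.6 in treatments 1, 2 and 3. Above 3 were 2.62%, 0.0663% and 0.623% of all genes. These shares are the background for each list on this scaling. Of 19 regulators of FOXO proteins, 10, 19 and 14 were below 0.6 in treatments 1, 2 and 3, and on this scaling none was above 3. They include kinases, deacetylases, the deubiquitinase USP7 and the 14-3-3 proteins, which hold phosphorylated FOXO in the cytoplasm. The 14-3-3 genes YWHAG and YWHAE, the most abundant of the list, had ratios of 0.623 and 0.158 in treatment 1. USP7 was at 0.367 there. The median of the list was 0.557 in treatment 1 and 0.328 in treatment 3, next to 0.572 and 0.426 for all genes.

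Of 21 other ubiquitin ligases of muscle and their partners, 14, 21 and 20 were below 0.6, and none was above 3. The median was 0.433 in treatment 1 and 0.318 in treatment 3. TRIM54 (MuRF3), a close relative of TRIM63 at the sarcomere, had 3898 counts in the control and 6285, 46 and 842 in treatments 1, 2 and 3. Like TRIM63 it was above the control in treatment 1, at 1.85 (1.77 to 1.92), and below it in treatment 3, at 0.287. The ubiquitin gene UBB had a ratio of 0.965 in treatment 1 and 0.244 in treatment 3. ASB2, the substrate-binding part of a cullin ligase of muscle, was at 0.254 and 0.328.

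Of 22 genes of autophagy initiation and conjugation, 17, 22 and 19 were below 0.6, and none was above 3, with a median of 0.385 in treatment 1 and 0.311 in treatment 3. RB1CC1, part of the starting kinase complex, was at 0.322 in treatment 1 and 0.324 in treatment 3, and ATG9A, a membrane protein of the early autophagosome, was at 0.313 and 0.304. GABARAP, the nearest relative of GABARAPL1, differed from these. It had 1047, 1618, 62 and 707 counts in the control and treatments 1, 2 and 3, with a ratio of 1.77 (1.64 to 1.91) in treatment 1 and 0.896 in treatment 3.

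Of 14 autophagy receptors and genes of mitophagy, 11, 14 and 11 were below 0.6 and none was above 3, with a median of 0.370 in treatment 1 and 0.345 in treatment 3. PINK1, the kinase that labels damaged mitochondria, had ratios of 0.553 and 0.379 in treatments 1 and 3, FKBP8 0.459 and 0.554, and the receptor CALCOCO1 0.231 and 0.215. Of 19 lysosomal genes, 11, 19 and 14 were below 0.6 and none was above 3. Among those below in each was PSAP, the precursor of the saposins, at 0.213 and 0.199. The cathepsins CTSB and CTSF were at 0.495 and 0.361 in treatment 1. The median of the lysosomal list was 0.520 in treatment 1 and 0.397 in treatment 3, close to the median of all genes.

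Of 16 further genes listed with FOXO as their regulator, 8, 16 and 13 were below 0.6, with a median of 0.706 in treatment 1 and 0.267 in treatment 3. PDK4, which shuts glucose out of the mitochondria and is a known FOXO target, had 11892, 1749, 20 and 298 counts in the control and treatments 1, 2 and 3, and ratios of 0.168 in treatment 1 and 0.0332 in treatment 3. Its ratios were near those of FBXO32, at 0.121 and 0.0276 on the same scaling. TXNIP, which restrains glucose uptake, was above the control in treatment 1, at 1.44, and at 0.631 in treatment 3, and CAT, the catalase, was at 0.338 and 0.276. Above 3 in treatment 1 were LPL, with 223 and 674 counts in the control and treatment 1, and FOXO6, with 9 and 31 counts. FOXO6 is itself the fourth factor of the family, and was above 3 in treatment 3 also, with 25 counts. These 2 are named because they were the ones above the limit, and FOXO6 rests on few counts. The unigene c1054_g2, with 3, 0, 0 and 2 counts and FOXO6 as its best nucleotide match, was summed into FOXO4. If c1054_g2 were counted as FOXO6, the ratio of FOXO6 would be just below 3 in both treatments on this scaling.

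The numbers of low and high genes in the lists depended on the scaling. With the median goat gene set to 1, the genes below 0.6 in treatments 1 and 3 were 7 and 5 of 19 FOXO regulators, 7 and 6 of 21 ligases and partners, and 8 and 3 of 22 genes of autophagy initiation. They were 7 and 4 of 14 receptors, 4 and 3 of 19 lysosomal genes and 6 and 7 of 16 other FOXO targets, next to 24.1% and 20.3% of all genes. Above 3 in treatment 1 were 3 FOXO regulators, namely YWHAZ (4.66), the kinase SGK1 (3.67) and the deacetylase SIRT1 (3.31), and also TRIM54 (3.22) and GABARAP (3.09). Of the other FOXO targets 4 were above 3 in treatment 1, which were FOXO6 (6.89), LPL (6.04), DDIT4 (4.14) and KLF15 (3.29), and FOXO6 (8.66) and DDIT4 (3.45) in treatment 3. The share of all genes above 3 was 7.78% and 4.92%. In treatment 3 the lysosomal protease CTSK was also above 3 (3.67), and in treatment 2 YWHAQ, CTSH, CTSK, NPC2 and LPL were, with 7 to 35 counts. Genes above 3 that the naming rule does not give were named after their values were seen. On this scaling UBB (1.69) and YWHAG (1.09) were above the control in treatment 1, and GABARAP (2.11), TXNIP (1.48) and FKBP8 (1.30) were above it in treatment 3. PDK4 remained low, at 0.294 in treatment 1 and 0.0781 in treatment 3, as did CALCOCO1 at 0.404 and 0.504.

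**Figure D4:**
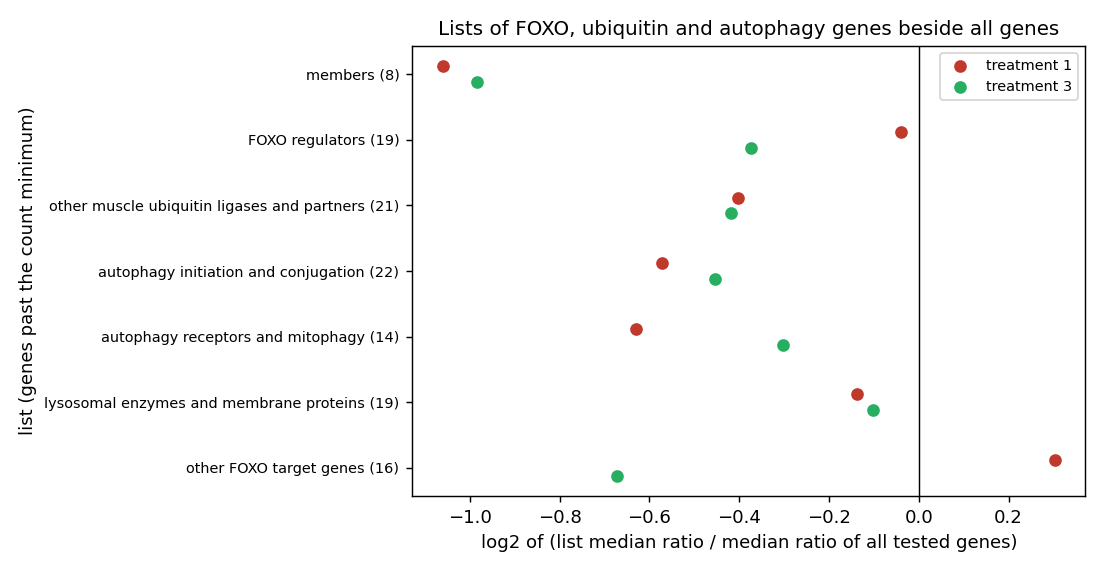
Median ratio to the control of each list, divided by the median ratio of all 7544 genes, as log2 for treatments 1 and 3, with the number of genes in brackets. The 8 genes described here have the lowest medians (-1.06 and -0.98), and the list of other FOXO targets lies at 0.30 in treatment 1 and -0.67 in treatment 3. The listed genes BNIP3 and CTSL are not among the 8. With the median goat gene set to 1, their ratios by annotation were 1.09 and 0.912 in treatment 1. In treatment 3 they were 0.737 and 0.827. With both added, the treatment 1 median would lie midway between 0.630 (SQSTM1) and 0.897 (MAP1LC3B). It would then not be the lowest, as the list of autophagy receptors and mitophagy was at 0.646. In treatment 3 it would lie between 0.522 (TRIM63) and 0.540 (SQSTM1), still the lowest. Treatment 2 was left out as 60.7% of genes were at 3 counts or fewer there.

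The genes with the pattern most like that of TRIM63 over the 3 treated libraries, among 4410 goat genes with at least 100 counts in the control, were KLHL40, OTUD1 and ANKRD1. Likeness was the distance between log2 ratios on goat-paired counts, at 1.16, 1.18 and 1.22. KLHL40, a kelch-like protein of muscle, had 4554, 14300, 26 and 675 counts in the control and treatments 1, 2 and 3. OTUD1, a deubiquitinase, had 1426, 10594, 2 and 129, and ANKRD1, a muscle ankyrin repeat protein that is induced by mechanical strain, had 8655, 25281, 50 and 1461. These 3 were above the control in treatment 1 and below it in treatment 3. For SQSTM1 the nearest genes were NPLOC4, GPD2 and PSMD3, at distances of 0.112, 0.165 and 0.167, and thus far closer than those of TRIM63. NPLOC4, a partner of the unfolding enzyme p97, had 1241, 389, 5 and 228 counts, and PSMD3, a proteasome subunit, had 1151, 349, 4 and 209.

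The muscle fibre markers were plentiful in all libraries, with 92187, 99783, 111403 and 149394 counts per 1000000 outside the mitochondrial genome over 7 of 10 listed genes in the control and treatments 1, 2 and 3. The gene ACTA1 had 130, 6, 0 and 3 counts, but its protein is nearly identical to that of ACTA2, with 238187 counts in the control, and the counts of the pair are uncertain. Adipocyte markers (3 of 5 listed) were at 14.8, 111, 859 and 28.5 per 1000000 and fibroblast markers (4 of 6) at 114, 168, 2220 and 270. They were highest in treatment 2, the library with the fewest counts of the 8 genes, 72 in all. Of the endothelial and smooth muscle markers all 6 were found, with 39465, 24982, 32593 and 55826 per 1000000, nearly all of it ACTA2. PECAM1, VWF, CDH5 and TAGLN were also highest in treatment 2, at 232, 366, 127 and 120 per 1000000. So was MYH11, from 3 counts, while ACTA2 was highest in treatment 3. Red blood cell markers (1 of 4) were at 4.27 to 14.9 per 1000000 and myeloid markers (2 of 5) at 0 to 4.51, with CD14 at 0 in each treated library. None of the 5 B and plasma cell markers was paired. The part of these cells, and of the mitochondrial share, in the ratios of the FOXO and atrophy genes was not tested.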

How the data were processed

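Longissimus muscle of 1 control and 3 ractopamine-treated libraries was analysed. Per the study's methods and the labels, the authors extracted total RNA, sequenced it on an Illumina instrument, checked reads with FastQC 0.10.1 (the submitters' processing notes) and assembled unigenes. The assembler, the counting tool and the goat annotation are not given in the sources used here. The authors deposited an expected count per unigene and transcript (all whole numbers, so rounding changed nothing), TPM and FPKM, and a table that gives the percent identity of each unigene's protein match to goat.

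Expected counts were summed over the unigenes of a goat gene and divided by all counts, by goat-paired counts (with unnamed unigenes), by these without 26 mitochondrial unigenes, or scaled to the median goat gene. In treatment 2 that median rests on genes at the floor of 3 counts. Genes with a mean of at least 10 counts were used, and limits were 3 and 0.6. A gene at the floor in a treated library could not count as higher. Intervals are 95% exact (Clopper-Pearson) and were tested on simulated data. No test between conditions was made. Total depth was 6675218 to 8533046 counts, and 3 counts equal 0.493 (control) to 22.4 (treatment 2) per 1000000 counts outside the mitochondrial genome. TPM was used for levels between genes, and FPKM times length as an alternative. Positions in unigenes count from 1, and no genome coordinates were taken.

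The members and lists were chosen with earlier results of these data known. Named are the members, the 3 genes of each list with most control counts, the 3 genes most like each of the 2 members with most counts, and GAPDH, while the other list genes above 3 (LPL and FOXO6 on goat-paired counts) were added after their values were seen. Of the authors' annotation only names, matches and sequences were used. The FPKM class tables were not used. The scripts ran under Python 3.11.15 with biopython 1.88, matplotlib 3.10.9, pandas 2.3.3, scipy 1.17.1 and numpy 2.4.6.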

Additional observations from a re-analysis of the deposited data

How the results depend on the processing

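With the median goat gene set to 1, 3 of the 8 genes were below 0.6 in all 3 treated libraries, in place of 6 on all counts and on goat-paired counts, against 5.38% of all genes with that scaling. That share includes genes with too few control counts to be below 0.6 in treatment 2, unlike the 8 genes. GABARAPL1 in treatment 2 changed its direction, to a ratio of 1.05 with that scaling and 1.52 on counts outside the mitochondrial genome, from 10 counts. The number of genes above 3 in any treated library, which is TRIM63 alone, was 0 to 1 when each treated library was left out in turn, with 0 without treatment 1. The number below 0.6 in all libraries left was 6 to 8 in the same way. On counts outside the mitochondrial genome, 5 of 8 genes were below 0.6 in all 3 treated libraries. Other limits, count minimums, a pseudocount of 1, FPKM times length, single unigenes, a minimum identity of 60%, the transcript table and calls by the interval left the counts of genes within 1.5 times. Unigenes grouped by their annotation, an alternative chosen after seeing the data, add BNIP3 and CTSL, so that 10 genes are counted. Of these 10, 8 were below 0.6 in all 3 libraries on all counts and 7 on goat-paired counts. No paired analysis was possible because there is 1 control library. The depth of treatment 2 limits its ratios, with 0 to 30 counts for a gene.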
